A study of Mus musculus with 12 samples.

Results

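The genes described here are Gzmb, Prf1, Pdcd1, Ctla2a, Trgv4, Cd247 and Cd2, 7 genes best known from T cells and natural killer (NK) cells. They were chosen by their log2 intensities in the 4 groups of the study, for strong differences between 2 mouse leukaemias, so their differences between the leukaemias are given as values without a test. Probe sets paired with 1 of these symbols alone in the array's annotation number 13 of 45037. The filter kept a probe set that exceeded 16 intensity units on 3 or more arrays. It kept 8 of the 13, with at least 1 for each of the 7 genes. Another 2 probe sets share a symbol with a second gene and are described separately.

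RNA was measured on 12 Affymetrix mouse arrays, 3 biological replicates for each of 4 groups of leukaemic stem cells. The first leukaemia, blast crisis chronic myelogenous leukaemia (bcCML), was started with BCR-ABL and NUP98-HOXA9 and sorted for cells without lineage markers (Lin-). De novo acute myelogenous leukaemia (AML) was started with MLL-AF9, and its stem cells were sorted as Lin-Sca1-ckit+ cells. In both models the starting cells were haematopoietic stem and progenitor cells of donor mice, either Msi2 Gt/Gt, which carry a gene trap in the RNA-binding protein gene Msi2 on both alleles, or wild type. The infected cells were transplanted, the mice received no treatment, and the strain is named B6;CB-Msi2Gt(pU-21T)2Imeg on the arrays of both genotypes. The antibodies of the lineage sort are not given in the sources used here, and the 2 leukaemias differ in their sort gate as well as in their oncogenes, so the gate and the leukaemia cannot be told apart.

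Cytotoxic T cells and NK cells kill by releasing granules. Perforin (Prf1) opens the target membrane and granzymes such as granzyme B (Gzmb) enter and cut proteins inside. The T cell receptor, with chains assembled from gene segments such as Trgv4, signals through Cd3 proteins and the zeta chain Cd247. Pdcd1 encodes PD-1, an inhibitory receptor of activated T cells, Cd2 an adhesion receptor, and Ctla2a an inhibitor of cathepsin-like proteases first found in activated mouse T cells.

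The 7 genes did not behave as 1 group. On all 6 bcCML arrays 4 of them, Gzmb, Pdcd1, Ctla2a and Trgv4, lay above all 6 AML arrays. Among all 10817 genes tested, 16.7% did so. Cd247 was the sole member lower on all 6 bcCML arrays, as were 17.3% of all genes. Prf1 and Cd2 overlapped between the leukaemias, and Cd2 reached its highest levels in wild-type AML. As a description, and by the brightest probe set of each gene, the bcCML label matches Gzmb, Pdcd1, Ctla2a and Trgv4 and not Prf1, Cd247 or Cd2. The genes were chosen for such differences, so the match is no support for the label. Which cells the RNA came from was not tested. These are bulk samples, in which fewer cells of a type and less RNA per cell cannot be told apart.

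**Figure D1:**
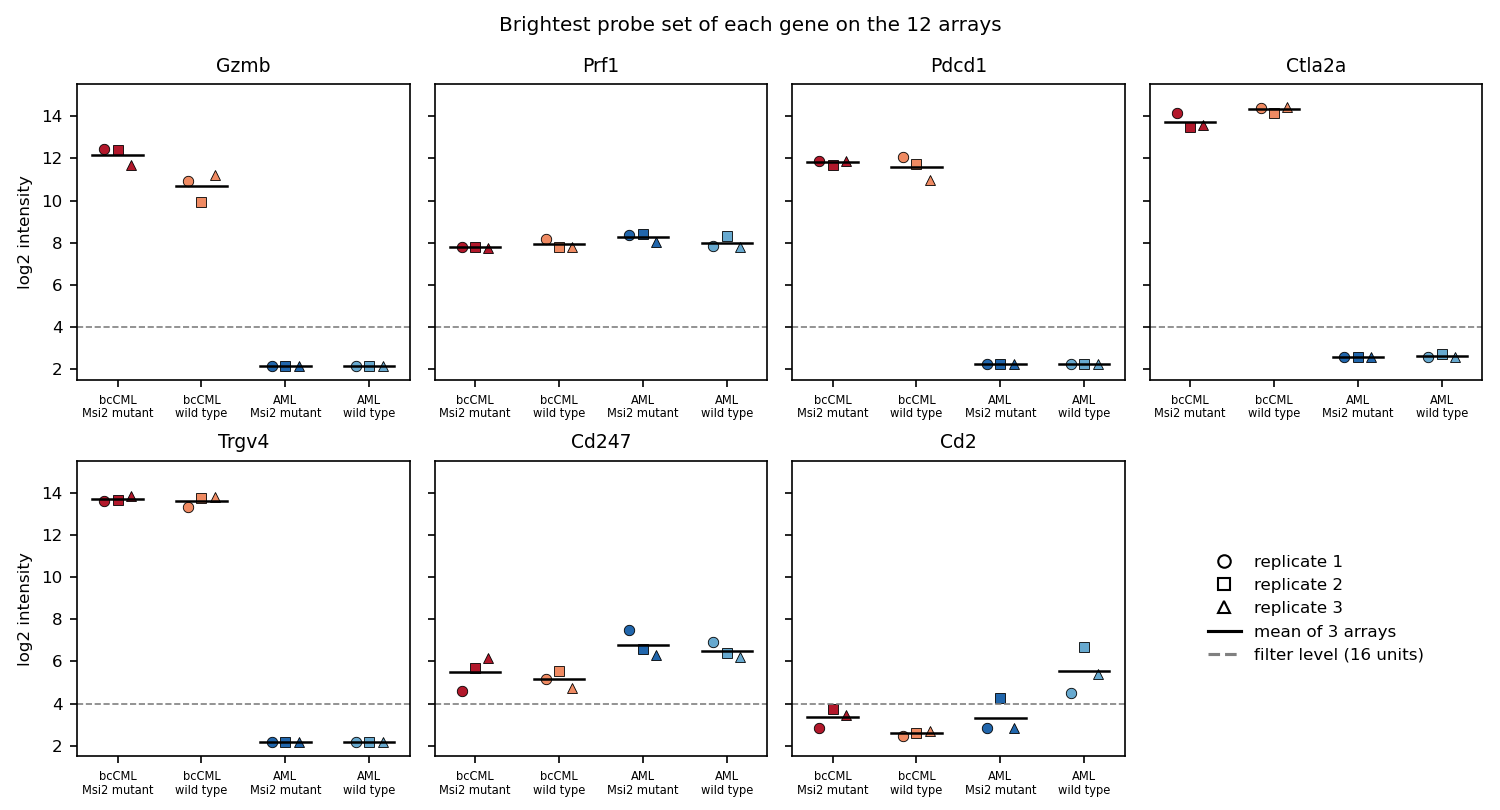
Log2 intensity (y axis) of the brightest probe set of each of the 7 genes in the 4 groups (x axis), with 1 point per array, a bar at the mean of 3 arrays and a dashed line at the filter level of 16 units. Gzmb, Pdcd1, Ctla2a and Trgv4 lie far above the line in bcCML and below it in AML, Prf1 is above the line in all 4 groups and lower in mutant bcCML than in mutant AML, and Cd247 and Cd2 reach their highest values in AML.

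Promoters of the 7 genes were read from RefSeq (GRCm38.p6), and 5 of the 7 had an entry. Each sequence runs from 250 bases before to 50 bases after a start site on the gene's strand. Capitals mark matches, on either strand, to TTCNNNGAA (Stat5), TGTGGT (Runx) or GGAAGT (Ets), with positions counted from the start site as 0. Of 32851 promoters, 8.30% hold the Stat5 letters, 16.8% the Runx letters and 23.8% the Ets letters. The promoters of Gzmb (chr14:56262285-56262584, minus strand), Pdcd1 (chr1:94052504-94052803, minus strand) and Ctla2a (chr13:60936576-60936875, minus strand) are shown because these genes had the contrast between the leukaemias, and that of Ctla2b (chr13:60897398-60897697, minus strand) because this neighbour of Ctla2a moved with it.
Gzmb: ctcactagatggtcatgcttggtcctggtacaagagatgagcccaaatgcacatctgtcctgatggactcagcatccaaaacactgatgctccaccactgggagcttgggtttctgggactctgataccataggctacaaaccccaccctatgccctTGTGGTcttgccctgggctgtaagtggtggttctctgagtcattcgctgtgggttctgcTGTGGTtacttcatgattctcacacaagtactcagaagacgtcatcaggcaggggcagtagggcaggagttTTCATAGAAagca
Pdcd1: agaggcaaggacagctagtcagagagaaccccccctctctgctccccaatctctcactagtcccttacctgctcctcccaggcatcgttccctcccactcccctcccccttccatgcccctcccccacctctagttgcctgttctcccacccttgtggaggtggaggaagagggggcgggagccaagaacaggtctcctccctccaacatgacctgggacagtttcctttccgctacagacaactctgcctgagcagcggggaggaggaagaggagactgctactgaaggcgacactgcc
Ctla2a: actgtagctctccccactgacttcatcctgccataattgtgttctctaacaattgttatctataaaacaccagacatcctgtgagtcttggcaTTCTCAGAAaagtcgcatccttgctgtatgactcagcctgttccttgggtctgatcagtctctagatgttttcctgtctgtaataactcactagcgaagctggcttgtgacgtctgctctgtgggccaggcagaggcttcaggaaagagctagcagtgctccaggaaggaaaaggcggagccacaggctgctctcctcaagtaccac
Ctla2b: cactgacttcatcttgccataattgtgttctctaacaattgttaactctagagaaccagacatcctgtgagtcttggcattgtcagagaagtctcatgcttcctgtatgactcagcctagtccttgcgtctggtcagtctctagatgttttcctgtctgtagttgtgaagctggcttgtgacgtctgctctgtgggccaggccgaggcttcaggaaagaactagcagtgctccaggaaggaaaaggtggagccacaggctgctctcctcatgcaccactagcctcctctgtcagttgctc
The Gzmb window held Runx letters at -93 and -34 and Stat5 letters at 37, and the Ctla2a window held Stat5 letters at -157. None of the 3 motifs was found in the Pdcd1 or Ctla2b window, which says only that these letters are not there. A global alignment of the Ctla2a and Ctla2b windows had 322 columns, 256 of them identical (79.5%), and the Stat5 letters of Ctla2a were not kept in Ctla2b. RefSeq lists a second Ctla2a start nearby, whose window shares the Stat5 letters. The Prf1 window held 1 Runx and 2 Ets matches and the Cd247 window 2 Ets matches. No motif was common to the Gzmb, Pdcd1 and Ctla2a windows.

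Gzmb, granzyme B, was measured above the filter level in bcCML alone. Its probe set measured 5510, 5443 and 3344 intensity units on the Msi2 mutant bcCML arrays, against 1944, 985 and 2384 units on the wild-type bcCML arrays. On all 6 AML arrays it lay at the floor of the background correction, 4.51 or 4.52 units. Every bcCML array was thus far above every AML array, by at least 290-fold between the mutant groups and at least 104-fold between the wild-type groups. These bounds set the bcCML mean against the filter level, because all AML arrays lay below it.

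Prf1, the granule partner of Gzmb, did not share this contrast on its brighter probe set. Its brighter probe set measured 226, 226 and 214 units in Msi2 mutant bcCML and 293, 226 and 222 units in wild-type bcCML. In AML it measured 330, 347 and 259 units in mutant cells and 233, 315 and 226 units in wild-type cells. The groups overlapped in wild-type cells, and the 3 mutant bcCML arrays lay below the 3 mutant AML arrays (log2 differences of -0.06 ± 0.18 and -0.48 ± 0.18, SE). The share of all genes parted in this way between the mutant groups was not counted. Between these groups 4875 of 10817 genes were called (limma adjusted p under 0.05). A value of 225.6 units recurred on 4 arrays, 3 of bcCML and 1 of AML, within 0.02 units, and the origin of this repeat was not tested. The other Prf1 probe set stayed near the floor, with 22.1 units on mutant bcCML array 1 and 20.4 units on wild-type bcCML array 1 as its highest values. It ranged from 4.62 units upward over the bcCML arrays and from 4.56 to 4.71 units over the AML arrays, and did not pass the filter.

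Other granule genes divided in the same way. Of 26 listed genes of the cytotoxic granule, 14 were tested, and without Gzmb and Prf1 these were 12. Among the 12, 4 were higher and 3 lower in wild-type bcCML than in wild-type AML (limma adjusted p under 0.05), where 36.9% of all genes passed (17.7% higher and 19.3% lower). Their median log2 difference was 0.35, against 0.00 for all genes. Ctsw, a cathepsin of cytotoxic cells, averaged 79.2 units in wild-type bcCML and 5.53 in wild-type AML, at least 4.33-fold (adjusted p = 0.000932). Serpinb9, which protects cells from their own granzyme B, averaged 42.8 and 10.8 units, at least 2.59-fold (adjusted p = 0.000244). Nkg7, a granule membrane protein, averaged 8285 and 3167 units (log2 difference 1.55 ± 0.36, adjusted p = 0.0074), so it was bright in both leukaemias. Between mutant bcCML and mutant AML Nkg7 averaged 9417 and 6927 units (log2 difference 0.46) and was not called. Lyst, a regulator of lysosome-related granules, averaged 26.5 and 360 units (-3.78 ± 0.23, adjusted p = 9.24e-07).

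The other granzymes did not follow Gzmb. Gzmd, Gzme, Gzmf, Gzmg, Gzmm and Gzmn reached at most 4.64 units on any array and Gzmk 6.43. Gzmd, Gzmg, Gzmn, Gzmf and Gzmc are the 5 nearest genes on one side of Gzmb on chromosome 14. Of these only Gzmc exceeded the filter level, at 66.98 units on mutant bcCML array 2 and 47.8 units on wild-type bcCML array 3. Gzma, the main granzyme of resting NK cells, measured 5.26, 969 and 8.46 units on the mutant bcCML arrays and 6.78, 96.9 and 4.51 units on the wild-type bcCML arrays. Only the arrays numbered 2 exceeded the filter, whereas Gzmb exceeded it on all 6.

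Pdcd1, which encodes the receptor PD-1, was a bcCML gene in both genotypes. It measured 3788, 3278 and 3707 units in mutant bcCML and 4287, 3375 and 2009 units in wild-type bcCML. All 6 AML arrays lay between 4.73 and 4.76 units, near the floor. The difference was at least 224-fold between the mutant groups and at least 192-fold between the wild-type groups, with no overlap between leukaemias and full overlap between genotypes. Of its ligands, Pdcd1lg2 averaged 359 units in wild-type bcCML and 15.0 in wild-type AML (log2 4.63 ± 0.76, adjusted p = 0.000973). The ligand Cd274 averaged 1682 and 626 units and did not pass (1.41 ± 0.83, adjusted p = 0.214).

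Among 12 other tested genes of a list of 19 inhibitory receptors, ligands and phosphatases, 4 were higher and 3 lower in wild-type bcCML. Of all genes 17.7% were higher and 19.3% lower. The median of the 12 was -0.27, against 0.00 for all genes. Havcr2, the receptor TIM-3, averaged 754 units in wild-type bcCML and 12.6 in wild-type AML (6.12 ± 0.62, adjusted p = 3.82e-05). Its ligand gene Lgals9 averaged 4470 and 1682 units (1.42 ± 0.24, adjusted p = 0.00109). The receptor genes Lair1 and Btla had the opposite sign, with Btla at 23.6 units in wild-type bcCML and 1313 in wild-type AML (-6.07 ± 0.75, adjusted p = 0.000154). Ctla4 and Lag3, other receptors of exhausted T cells, stayed at or below 6.0 units on every array.

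Ctla2a was bright on every bcCML array and below the filter level on every AML array. It measured 18009, 11420 and 12055 units in mutant bcCML and 21635, 17953 and 22483 units in wild-type bcCML. The AML arrays lay between 6.0 and 6.61 units. The difference was at least 846-fold between the mutant groups and at least 1287-fold between the wild-type groups. Ctla2b, its near copy on chromosome 13, averaged 2040 units in wild-type bcCML and 5.71 in wild-type AML (at least 127-fold, adjusted p = 3.5e-09). A probe set shared by Ctla2b and Ctla2a averaged 15413 and 5.11 units in the same groups. Signal can pass between such similar copies, so the share of each is uncertain.

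The contrast did not extend to the proteases around Ctla2a. Its neighbours Ctsll3, Ctsj, Ctsq, Ctsr and Cts6 averaged at most 5.05 units in any group, and the placental genes Tpbpa and Tpbpb at most 5.10. The uncharacterised neighbour 4930486L24Rik averaged 66.8 units in wild-type bcCML and 7.61 in wild-type AML, at least 4.06-fold (adjusted p = 4.14e-06). It was singled out after its values were seen. Of 12 tested cathepsins, cystatins and Ctla2b, 3 were higher (Ctla2b, Ctsw and Cst7) and 7 lower in wild-type bcCML, beside 17.7% and 19.3% of all genes, with a median of -0.65. Ctsh averaged 10.5 units in wild-type bcCML and 2982 in wild-type AML (-8.43 ± 0.43, adjusted p = 2.74e-07), and Ctsl, the closest relative of the Ctla2 inhibitors, 146 and 451 units (-1.70 ± 0.37, adjusted p = 0.00541).

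Trgv4, a variable segment of the T cell receptor gamma chain, was likewise far above the filter level in bcCML alone. Its brightest probe set measured 12476, 12982 and 14546 units in mutant bcCML and 10338, 13683 and 14081 units in wild-type bcCML. All AML arrays were at the floor, 4.5 to 4.52 units. The difference was at least 832-fold between the mutant groups and at least 786-fold between the wild-type groups. A second probe set ranged from 8984 to 12807 units over the bcCML arrays, and one shared with Trgv2 from 16620 to 22802 units. The probe sets disagreed, since the third Trgv4 probe set lay between 4.49 and 4.52 units on all 12 arrays.

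Of 10 symbols of T cell receptor segments on the array, 5 were tested beside Trgv4. In wild-type bcCML 4 of the 5 were higher and none lower, beside 17.7% and 19.3% of all genes. Their median was 2.15, against 0.00 for all genes. Trbv13-2, Trgv1 and Tcra lay below 16 units on all AML arrays, so the filter kept them through bcCML arrays alone. It thus favoured this direction, and the count, the median and the p-values below are no support for a contrast of the segments. Trbv13-2 averaged 607 units in wild-type bcCML and 5.36 in wild-type AML (at least 36.3-fold, adjusted p = 6.01e-09). Trgv1 averaged 680 and 5.0 units (at least 32.0-fold, adjusted p = 0.000145), and on the bcCML arrays it ranged from 325 to 3419 units in mutant and from 162 to 1159 units in wild-type cells. The constant segments Trac, Trbc1 and Trbc2 were looked for, but no probe set carried these symbols alone, so they were not measured here. Whether the RNA comes from rearranged segments was not tested.

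**Figure D2:**
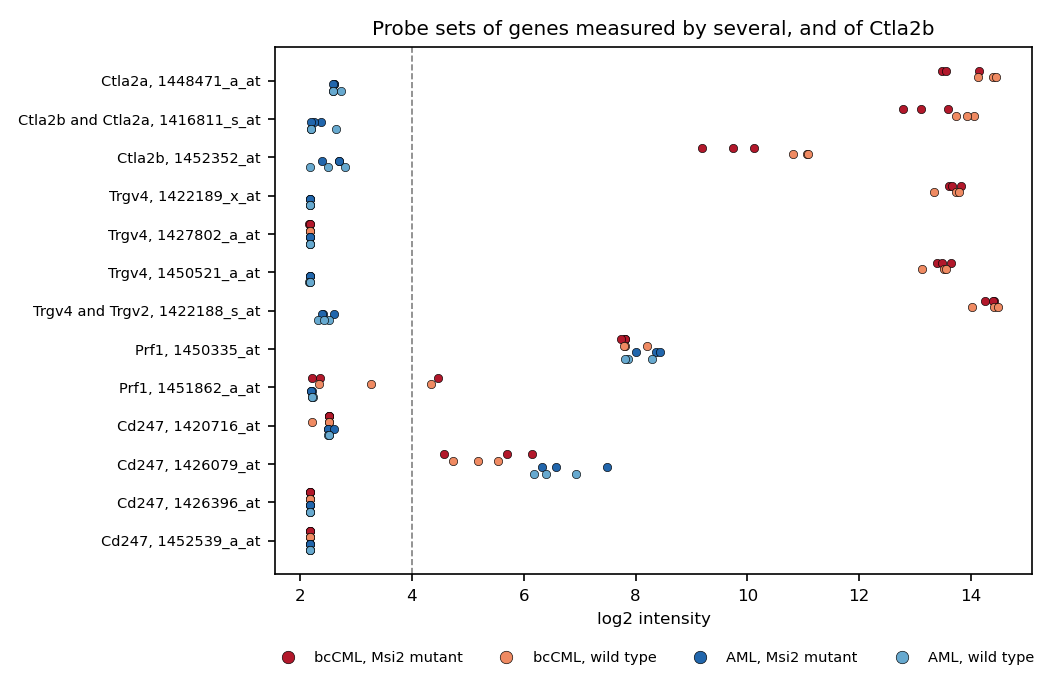
Log2 intensity (x axis) on each of the 12 arrays for the probe sets (y axis) of Ctla2a, Trgv4, Prf1 and Cd247, with Ctla2b and both shared probe sets; colours mark the groups and the dashed line is the filter level of 16 units. Ctla2a, Ctla2b and 3 of the 4 Trgv4 rows part bcCML from AML, whereas 1 Trgv4 and 3 Cd247 probe sets stay near the floor everywhere.

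Cd247, the zeta signalling chain, was dim and higher in AML. Its only probe set above the filter measured 23.9, 52.1 and 71.1 units in mutant bcCML and 36.3, 46.7 and 26.7 units in wild-type bcCML. In AML it measured 180, 95.4 and 80.1 units in mutant and 122, 84.1 and 73.1 units in wild-type cells. The highest bcCML array lay just under the lowest AML array, with log2 differences of -1.32 ± 0.43 between mutant and -1.35 ± 0.43 between wild-type groups. The other 3 Cd247 probe sets stayed at or below 6.1 units on all arrays.

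Genes that work with Cd247 moved in both directions. Of 12 other tested genes of the receptor complex and its early signalling, 4 were higher and 5 lower in wild-type bcCML, with a median of -0.38. Of all genes 17.7% were higher and 19.3% lower. The adaptor Lat averaged 1732 units in wild-type bcCML and 27.8 in wild-type AML (6.09 ± 0.66, adjusted p = 6.06e-05). The adaptor Sla2 averaged 920 and 10.3 units (at least 55.8-fold, adjusted p = 1.48e-07) and the kinase Prkcq 649 and 5.74 units (at least 39.2-fold, adjusted p = 3.47e-07). The signalling adaptor Tyrobp had the opposite sign, with 1286 and 14466 units (-3.57 ± 0.27, adjusted p = 5.1e-06). Zap70, the kinase that binds phosphorylated Cd247, reached 18.9 units on mutant bcCML array 2 and at most 5.98 elsewhere.

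Cd2, an adhesion receptor that binds Cd48 in mice, was measured above the filter only in AML. It had 7.19, 13.4 and 11.2 units in mutant bcCML and 5.54, 6.14 and 6.45 units in wild-type bcCML. In AML it had 7.18, 19.6 and 7.19 units in mutant and 22.7, 104 and 42.5 units in wild-type cells. Wild-type AML was at least 2.901-fold above wild-type bcCML, and the 2 mutant groups overlapped. Its ligand gene Cd48 averaged 5529 units in wild-type bcCML and 2655 in wild-type AML (1.05 ± 0.44, adjusted p = 0.0864). Among 10 other tested genes of the Cd2 and SLAM receptor family, 2 were higher and 2 lower in wild-type bcCML, a share close to the 36.9% of all genes. Slamf1 was among those higher, with 108 and 4.51 units (at least 5.77-fold, adjusted p = 2.55e-05). In mutant bcCML against mutant AML 4 of the 10 were higher and 3 lower, where 4875 of 10817 genes were called.

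Most markers that define T cells or NK cells stayed near the floor. Of 14 T cell markers on the array, 11 stayed below 16 units on all 12 arrays, among them Cd3d, Cd3e, Cd3g, Cd4, Cd8a, Cd8b1, Cd5 and Cd6. Thy1 measured 1132, 2023 and 2359 units in mutant bcCML and 1001, 2358 and 1894 units in wild-type bcCML, against at most 17.0 in AML. Bcl11b, a transcription factor of T cells, was called in the other direction, at 92.8 units in wild-type bcCML and 223 in wild-type AML (-1.28 ± 0.39, adjusted p = 0.0246). Cd28 exceeded 16 units only on mutant AML arrays 1 and 3, at 37.8 and 48.6 units, was at most 4.66 in bcCML and was not tested. The summed T cell markers ranged over 1295 to 2596 units in mutant bcCML, 1143 to 2488 in wild-type bcCML, 321 to 740 in mutant AML and 255 to 355 in wild-type AML, and Thy1 made most of the bcCML sum.

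Of 10 NK cell markers, 6 stayed below 16 units on all arrays, among them Ncr1, Klrk1, Klre1, Eomes and Tbx21. The others were Nkg7, Klrd1, Xcl1 and Gzma. Their summed level was 9131 to 10698 units in mutant bcCML, 7662 to 8954 in wild-type bcCML, 5248 to 8073 in mutant AML and 1531 to 5062 in wild-type AML, nearly all of it Nkg7. The bcCML mutant array 2 stood apart, with Klrd1 at 96.5 units and Xcl1 at 75.1, against at most 7.18 and 13.9 on any other array. The same array had Cd7 at 359 units, Themis at 69.8 and the mast cell gene Fcer1a at 246. Gzmb was as bright on mutant array 1 (5510 units), where Gzma was 5.26 and Klrd1 5.47.

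**Figure D3:**
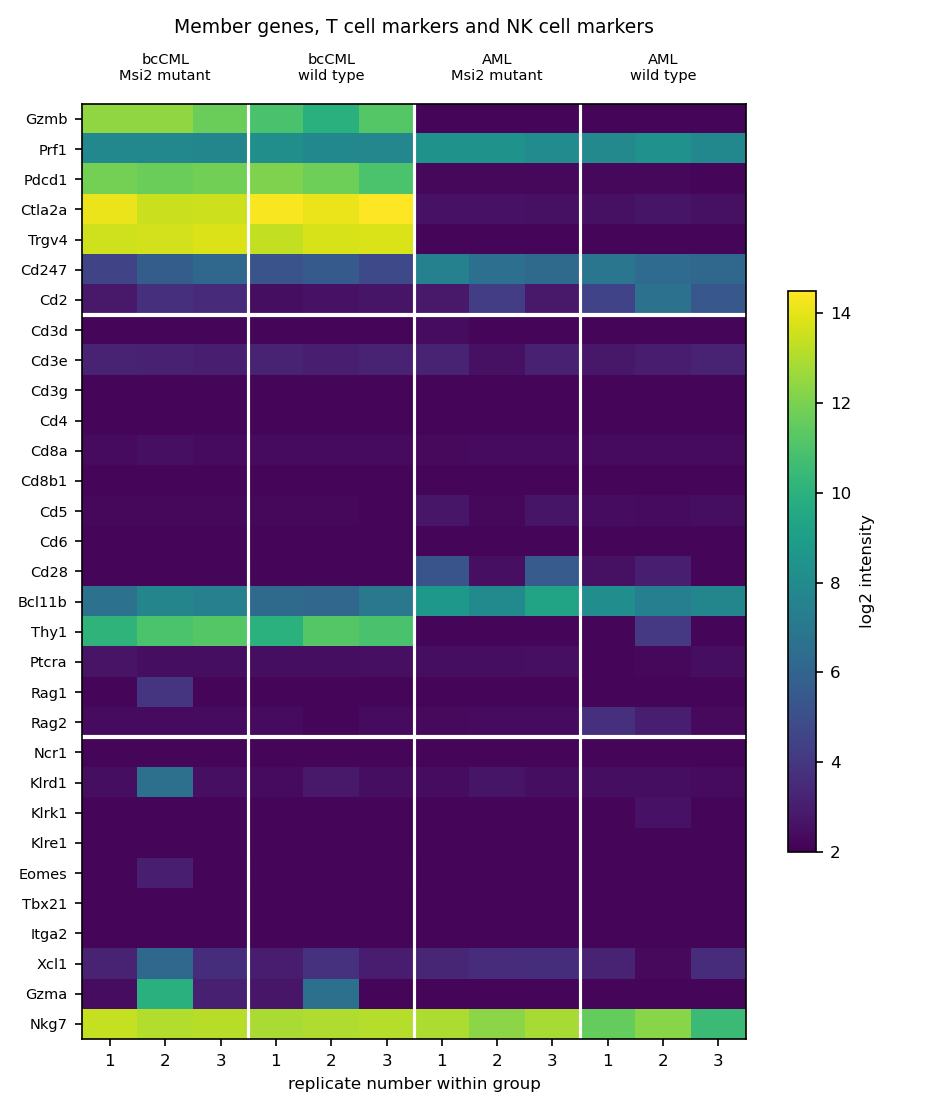
Log2 intensity (colour) of the 7 genes, 14 T cell markers and 10 NK cell markers (rows, parted by white lines) on the 12 arrays (columns, by group and replicate). The yellow and green bcCML rows of Gzmb, Pdcd1, Ctla2a, Trgv4 and Thy1 stand beside near-floor rows of Cd3d, Cd3e, Cd3g, Cd4 and Cd8a, and mutant bcCML array 2 alone shows Klrd1.

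Cytokine receptors and transcription factors of T and NK cells were likewise divided. Among 9 tested cytokine pathway genes, 3 were higher and 3 lower in wild-type bcCML, beside 17.7% and 19.3% of all genes. Il2ra, the alpha chain of the interleukin 2 receptor, averaged 1745 units in wild-type bcCML and 4.53 in wild-type AML (at least 91.5-fold, adjusted p = 8.24e-07), while Il2rb exceeded 16 units only on mutant bcCML array 2, at 24.4. Among 13 tested transcription factors, 3 were higher and 5 lower, beside the same 17.7% and 19.3%. Tox, a factor of developing and exhausted T cells, averaged 1936 units in wild-type bcCML and 9.34 in wild-type AML (at least 120-fold, adjusted p = 9.17e-08). Notch1 averaged 143 and 1537 units (-3.61 ± 0.40, adjusted p = 7.53e-05).

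Genes known from other cell types differed between the leukaemias as well. Whether such cells were present, and their part in the values above, was not tested. In wild-type bcCML all 6 tested erythroid genes, 6 of 7 megakaryocyte genes and 6 of 8 mast cell and basophil genes were higher than in wild-type AML. Of all genes 17.7% were called higher (limma adjusted p under 0.05). Of the neutrophil genes 11 of 13, and of the monocyte and macrophage genes 7 of 10, were lower, beside 19.3% of all genes. Gata1, Klf1, Epor, Car1, Itga2b, Gp5, Ppbp, Cma1 and Il4 lay below 16 units on all AML arrays. Csf1r, Cd14, Mpeg1, C1qb, Mmp8, Mmp9 and Csf3r did so on all bcCML arrays. The filter kept each of these genes through 1 leukaemia alone, which favoured the direction of these counts. Mast cells also make some granule proteases, and Cma1, a mast cell chymase, measured 35.1, 350 and 31.5 units in mutant bcCML and 101, 101 and 26.6 units in wild-type bcCML, with mutant array 2 again highest.

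The second comparison asked what Msi2 loss did to these genes. Msi2 itself averaged 605 ± 117 units in mutant and 3827 ± 1085 units in wild-type bcCML (SD, n = 3; log2 difference -2.63 ± 0.34, limma adjusted p = 0.01999). In AML it averaged 69.6 ± 17.0 and 312 ± 125 units (-2.11 ± 0.34, adjusted p = 0.0211). None of the 7 genes passed the threshold in bcCML, where 0.139% of all genes did (15 of 10817), and none in AML, where 1.52% did (164). With the replicate number as a block for the bcCML arrays alone, within the fit over all arrays, 42 genes passed in bcCML. Still none of the members above the filter level in bcCML did. In the test of the bcCML difference against that in AML, 0% of all genes passed (limma; 1014 of 10817 at an unadjusted p under 0.05).

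Gzmb had the largest Msi2 difference of the 7 genes in bcCML. It averaged 4766 ± 1232 units in mutant and 1771 ± 716 units in wild-type bcCML (SD, n = 3), and all 3 mutant arrays lay above all 3 wild-type arrays. Non-overlap of this kind and direction was seen for 5.83% of all genes. The log2 difference of 1.49 ± 0.30 did not pass (limma adjusted p = 0.133; adjusted p between 0.0893 and 0.431 over the alternatives). It ranked 67th from the highest among 10817 genes. The fit shares 1 spread per gene over the 4 groups, and the AML arrays at the floor added almost none. With the bcCML arrays alone the SE of this difference was 0.39 (limma adjusted p = 0.431). Without both bcCML arrays numbered 2, where Gzma exceeded the filter level, the difference was 0.995 ± 0.24. Other lists differed between the same arrays. Of 21 tested interferon-stimulated genes, 20 had positive differences in bcCML and none was called, with a median of 1.23 against -0.02 for all genes. Of 24 such genes, 21 lay above 16 units on each mutant bcCML array and 15 to 17 on the wild-type bcCML arrays. Of 13 neutrophil genes 4 had positive differences and none was called, with a median of -1.11. The part of either list in the Gzmb values was not tested.

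Granule genes had differences of both signs in bcCML, and none was called. Of the 14 tested 8 differences were positive, with a median of 0.16 against -0.02 for all genes. Ctsw measured 476, 110 and 362 units in mutant and 85.1, 32.7 and 120 units in wild-type bcCML, which overlapped as groups but was higher in the mutant of all 3 same-numbered pairs (log2 1.94 ± 0.60, adjusted p = 0.422). The share of all genes higher in all 3 pairs was not counted. Serpinb9 measured 76.8, 106 and 63.0 units in mutant and 28.9, 55.2 and 44.3 units in wild-type bcCML, without overlap, as for 5.83% of all genes (0.95 ± 0.26, adjusted p = 0.340). In AML 1 of the 14 granule genes was called, beside 1.52% of all genes. This gene, Lyst, averaged 775 ± 100 units in mutant and 360 ± 48.6 units in wild-type AML (1.11 ± 0.23, adjusted p = 0.0460).

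**Figure D4:**
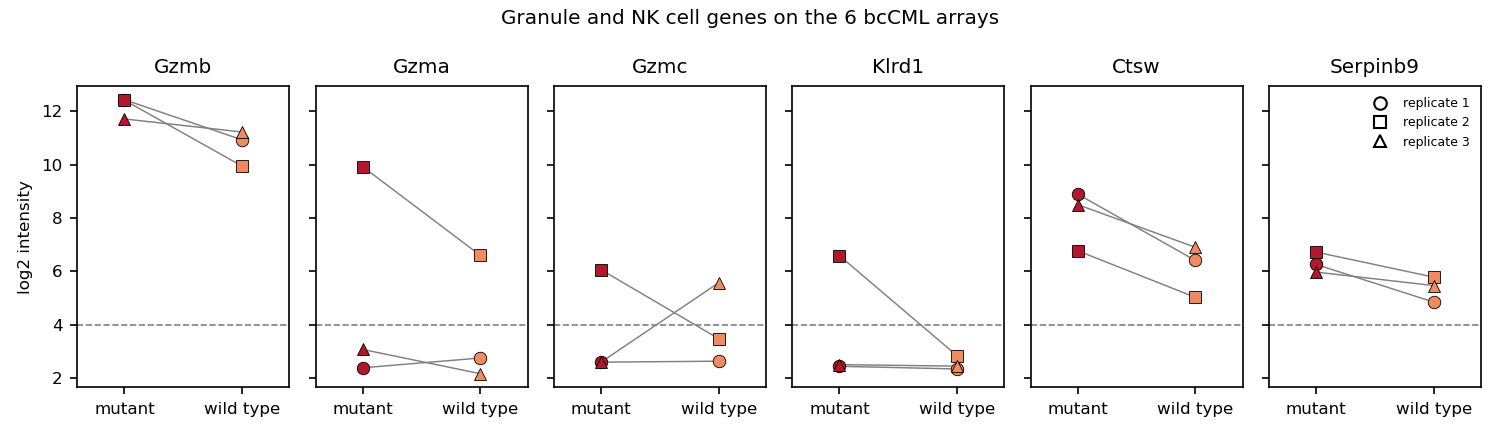
Log2 intensity (y axis) of 6 granule and NK cell genes on the mutant and wild-type bcCML arrays (x axis), with 1 point per array, lines joining arrays of the same replicate number and a dashed line at 16 units. Gzmb is higher on all 3 mutant arrays, whereas Gzma and Klrd1 stand out on mutant array 2.

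Ctla2a went the other way. Its mean was 13828 ± 3635 units in mutant and 20691 ± 2408 units in wild-type bcCML (SD, n = 3), and the groups just overlapped, since mutant array 1 (18009 units) exceeded wild-type array 2 (17953). Within all 3 same-numbered pairs it was lower in the mutant, and the share of all genes that did so was not counted. The log2 difference of -0.61 ± 0.18 did not pass (limma adjusted p = 0.386). Ctla2b measured 1106, 585 and 859 units in mutant and 1810, 2139 and 2171 units in wild-type bcCML, without overlap, as for 10.1% of all genes (-1.31 ± 0.24, adjusted p = 0.0915). The shared probe set also had a negative difference (-0.74 ± 0.21, adjusted p = 0.404 over all probe sets). With 16 units added before the logarithm Ctla2b passed (adjusted p = 0.0411), as the neighbour 4930486L24Rik did in both settings. That neighbour measured 26.7, 19.9 and 22.8 units in mutant and 62.7, 87.8 and 49.96 units in wild-type bcCML (-1.50 ± 0.23, adjusted p = 0.0495), a call that ended under 19 of 23 alternatives (adjusted p up to 0.269).

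The differences of the other genes in bcCML were small beside their standard errors. Pdcd1 averaged 3591 ± 274 units in mutant and 3224 ± 1147 units in wild-type bcCML (SD, n = 3; 0.22 ± 0.23, limma adjusted p = 0.865). Trgv4 averaged 13335 ± 1079 and 12701 ± 2056 units (0.08 ± 0.14, adjusted p = 0.941). Prf1 averaged 222 ± 6.93 and 247 ± 40.2 units (-0.15 ± 0.18, adjusted p = 0.900), and Cd247 49.0 ± 23.7 and 36.6 ± 9.99 units (0.32 ± 0.43, adjusted p = 0.911). Cd2 lay below the filter in both bcCML groups, so no size is given.

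In AML only Cd2, Cd247 and Prf1 were above the filter. Cd2 averaged 11.3 ± 7.17 units in mutant and 56.3 ± 42.3 units in wild-type AML (SD, n = 3), and the highest mutant array lay under the lowest wild-type array, as for 11.6% of all genes. The log2 difference of -2.21 ± 0.54 did not pass (limma adjusted p = 0.0830). Cd2 was kept by the filter through 4 AML arrays, which included all 3 wild-type ones, so the filter favoured this direction. Mutant arrays 1 and 3 (7.18 and 7.19 units) lay below the filter level, so the size is only partly measured. The difference passed without AML mutant array 2 (adjusted p = 0.0494), and over the alternatives it ran between -2.73 and -1.27. The highest value, 104 units, was on wild-type AML array 2, without which the difference was -1.63 ± 0.47. That array had 23 of 24 interferon-stimulated genes above 16 units, against 14 to 18 on the mutant AML arrays and 13 and 14 on the other wild-type AML arrays, and the part of this in the Cd2 values was not tested. Cd247 (0.29 ± 0.43, adjusted p = 0.858) and Prf1 (0.28 ± 0.18, adjusted p = 0.562) did not pass. Of 5 tested NK cell receptor and marker genes none was called in AML, where Klra17 reached 1659 units on wild-type AML array 2 and at most 13.3 on any other array.

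**Figure D5:**
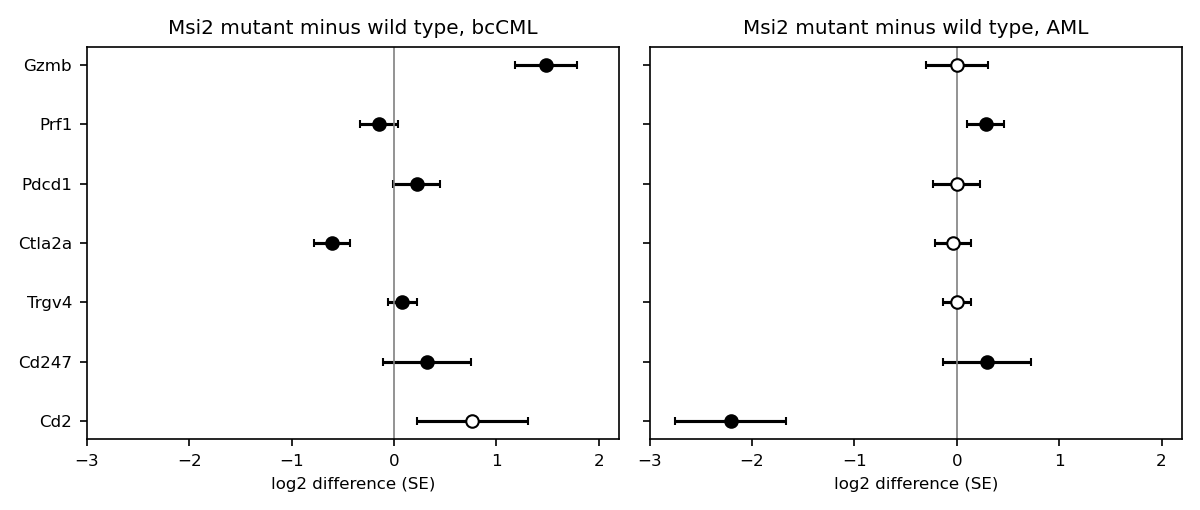
Log2 difference of Msi2 mutant minus wild-type arrays (x axis, bars are the standard error of the limma fit, 3 arrays a group) for the 7 genes in bcCML and in AML. The fit shares 1 spread per gene over the 4 groups, so bcCML bars of genes near the floor in AML may be too short. Open circles mark genes below 16 units on all arrays of both groups; Gzmb at 1.49 in bcCML and Cd2 at -2.21 in AML lie farthest from 0, and none passed the threshold.

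The genes with the profile most like each member were found by the root mean square difference of centred log2 intensities over the 12 arrays, a likeness set mostly by the contrast between the leukaemias. Trgv4 and Ctla2a were close to each other (0.34) and both were closest to F2r, a thrombin receptor (0.29 and 0.30). For Pdcd1 the closest genes were Rab38, a small GTPase of granule-like organelles (0.32), Podxl, a sialomucin (0.32), and Enah (0.38). For Gzmb they were Podxl (0.56), Rab38 (0.58) and Pdcd1 (0.65). Cd247 was closest to Pdlim2 (0.26), Cd2 to Stn1 (0.48) and Prf1 to Napa (0.13). Among the 10816 other genes Prf1 ranked 7039th in likeness to Gzmb.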

How the data were processed

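RNA was measured on 12 arrays. The authors deposited a linear, GCRMA-processed intensity for each probe set (GCRMA is named in the submitters' processing notes). Its version is not given in the sources used here. Its background correction presses dim probe sets onto a floor (4.49), so changes of dim genes are only partly measured. Probe sets were named through an annotation table (34945 of 45037 with 1 symbol). Intensities were log2 transformed with no pseudocount, filtered above 4 on at least 3 arrays, and each gene was its brightest probe set, giving 10817 genes. A gene below the filter level on all arrays of 1 leukaemia was kept through the other leukaemia alone. For such genes the filter favoured a call toward the leukaemia where they are high. A limma (3.58.1, R 4.3.3) model of the 4 groups used all 12 arrays, two-sided, with Benjamini-Hochberg adjustment and a threshold of 0.05. The 4 groups share 1 spread per gene. For genes near the floor in AML, such as Gzmb, Pdcd1, Trgv4, Ctla2a and Ctla2b, the standard errors given for bcCML may thus be too small. Fold bounds compare the mean log2 intensity of the brighter group with the filter level where the dimmer group's 3 arrays all lay below it.

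The members and gene lists were chosen with earlier results of these data known. Named were all members, up to 4 called genes of each list by smallest p or otherwise its brightest, the defining T and NK markers, the 3 most similar genes per member, and Msi2. Same-numbered bcCML arrays deviated together (correlations 0.396, 0.364 and 0.278) and AML arrays did not (-0.055, -0.121 and -0.030), which was taken as pairing in bcCML, from the data and not a stated design. Where nothing beyond the titles separates the replicates, p-values measure the spread between these samples. Tested on simulated data for 10817 genes, the bcCML fit recovered 43% of changes of log2 1 and 79% of log2 2. The AML fit recovered 32.5% and 80%, and the interaction 3.5% and 53%, so most interactions of log2 1 would be missed. With 3 arrays a group, their number limits the precision. Promoters were aligned with Biopython.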

Additional observations from a re-analysis of the deposited data

Results flagged for a closer look

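Cd2 had opposite Msi2 differences in the leukaemias, with every mutant array above every wild-type array in bcCML and below every wild-type array in AML. Non-overlap upward in bcCML was seen for 5.83% of all genes and downward in AML for 11.6%. All 6 bcCML values lay below the filter level of 16 units, so the computed bcCML minus AML difference, 2.97 ± 0.76 on the log2 scale, is no measured size. Its test did not pass (limma adjusted p = 0.229).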

How the results depend on the processing

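Of 583 alternative values of single genes, 541 kept their direction and side of the threshold or stayed within 1 SD. No member above the filter level in bcCML passed there under any alternative. Cd2, below that level in bcCML, was not followed there. In AML Cd2 passed under 2, without AML mutant array 2 and with the replicate block over all arrays (limma adjusted p = 0.0379). Same-numbered AML arrays, however, did not deviate together. Cd2 was kept by the filter through AML arrays alone, so these passes are no support for a Msi2 difference. Counts in bcCML (15) were 8 with a filter at log2 5, 25 with 16 units added, 9 with the mean of a gene's probe sets, 8 with trend and robust eBayes, and 7 to 22 leaving out 1 array. Counts in AML (164) were 105 without a filter, 51 without both bcCML arrays numbered 2 and 43 to 182 leaving out 1 array. No gene was called in the interaction by limma (1014 at an unadjusted p under 0.05), against 5 without a filter, 4 at log2 5, 3 with 16 units added, 4 after quantile normalization, 2 without both arrays numbered 2 and 0 to 21 leaving out 1 array. Fitted on the arrays of the 2 groups compared, limma called 0 in bcCML and 0 in AML (1042 and 1207 unadjusted).

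The replicate block over all arrays gave 16 genes in bcCML and 142 in AML. As a block for the bcCML arrays alone it gave 42 in bcCML, 92 in AML and 28 in the interaction, and fitted on the 6 bcCML arrays 0 (1413 unadjusted). The block for bcCML arrays alone, the fit on 6 arrays with it and leaving out the arrays numbered 2 were chosen after seeing the data. In bcCML, leaving out 1 array gave -0.086 to 0.46 for Pdcd1, -0.061 to 0.16 for Trgv4 and -0.013 to 0.77 for Cd247. For Cd247 it gave -0.055 to 0.53 in AML and -0.31 to 0.48 in the interaction, which was -0.0045 with 16 units added. Where signs turned, the cause was not tested. With 16 units added the bcCML minus AML differences of Gzmb, Pdcd1, Trgv4 and Ctla2a were 6.35 to 9.86, since the floor then weighs less.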
